A study of Mus musculus with 3 samples.

Results

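Plasmacytoid dendritic cells (pDC) are immune cells made in the bone marrow that sense viral nucleic acids in their endosomes and can release large amounts of type I interferon. They depend on the transcription factor Tcf4, and they present antigen on MHC class II only weakly compared with conventional dendritic cells. Here they were described in mouse bone marrow 14 days after γ-irradiation with and without cannabidiol (CBD), in a study of how this compound acts on blood formation after acute irradiation. According to the methods, the animals were male C57BL/6 mice, whose age is not given in the sources used here, and the irradiation was 6 Gy of Cobalt-60 γ-rays. The Control library came from mice without irradiation. The IR library came from mice given 6 Gy and the solvent, soybean oil with DMSO, and the IR+CBD library from mice given 6 Gy and 4 intraperitoneal injections of CBD at 50 mg/kg around the exposure. The label of this last library names the CBD treatment alone, and its irradiation is taken from the description of the series.

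For each group, femoral marrow of 3 mice was stained, sorted into Lin−Kit+, Lin−Kit− and Lin+ cells, remixed at 5:4:1 and loaded as 1 droplet library. Every share of cells below therefore refers to this mix and not to marrow. The authors deposited UMI counts (unique molecular identifiers, which tag each RNA molecule caught in a droplet) for 36035 barcodes, of which 31292 had at least 200 genes and at most 5% mitochondrial UMIs and were kept (10674 Control, 10345 IR and 10273 IR+CBD cells). A kept cell was taken as a pDC when it held a UMI of at least 3 of 6 genes, Siglech, Ccr9, Cox6a2, Cd300c, Klk1 and Upb1. This gave 440 cells. Because the cells were selected on these 6 genes, the levels of the 6 genes describe the selection and are no finding. Levels are given as CPM (UMIs per 1000000 UMIs summed over the pDC of a library), and a comparison is the CPM of one library divided by that of another. A gene is called when this ratio is at least 2-fold in either direction. Ranges in parentheses are exact 95% intervals, which cover counting error only. With 1 library per group there are no replicates, and differences between mice, sorts or preparations cannot be told apart from the treatment.

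The rule genes chose the pDC, so their levels in pDC and other cells are set apart by the selection itself. Siglech, a surface lectin of pDC, stood at 903, 489 and 683 CPM in the pDC of Control, IR and IR+CBD, against 1.07, 0.219 and 0.197 CPM in all other kept cells. The gut-homing receptor Ccr9 followed at 299, 130 and 253 CPM, the cytochrome oxidase subunit Cox6a2 at 776, 551 and 850 CPM (13.8, 6.18 and 6.10 CPM in the other cells, of which 8.07%, 5.08% and 4.49% held a UMI), and the receptor Cd300c at 253, 210 and 251 CPM. The protease gene Klk1 had 116, 140 and 92.1 CPM and the pyrimidine-degrading enzyme Upb1 190, 204 and 261 CPM. These levels follow from the selection and are not compared between libraries. A UMI of Siglech was found in 98.9%, 89.3% and 98% of pDC, and with every cell thinned to 2000 UMIs in 77.2%, 62.5% and 64.3%. Erythroid cells, which do not make these transcripts, show how far free RNA spreads between droplets. Siglech appeared in 0.375%, 0.0851% and 0.381% of them and Ccr9 in 2.06%, 1.96% and 1.33%, at median depths of 34689, 39888 and 37007 UMIs, against 8026, 10500 and 7702 UMIs in the pDC. Thinned to 2000 UMIs, Ccr9 was found in 46.0%, 26.8% and 43.9% of pDC. Among thinned erythroid cells it was found in 0.188% in Control, 0 of 1171 in IR (3 counts, the limit used for a count of 0, would be 0.256%) and 0 of 1046 in IR+CBD (0.287%).

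The label was checked against 24 pDC genes outside the rule. All 24 were detected in each library and each was higher in the pDC than in all other kept cells. Together they reached 16470, 14760 and 17280 CPM in the pDC of the 3 libraries, against 5005, 5233 and 4613 CPM in the other cells, with median folds of 10.9, 8.47 and 9.67, and the highest was Plac8, a cysteine-rich protein abundant in pDC. The label therefore held in all 3 libraries on genes that had no part in the selection. Among the genes tested, which leave out the rule genes, those highest in pDC over the other cells were Gm21762, a predicted gene at 103, 96.0 and 63.6 CPM against 0.0105, 0.00497 and 0.0116 CPM, and the glutamate receptor Grm8 at 273, 128 and 108 CPM against 0.335, 0.194 and 0.197 CPM. They were followed by Sh3bgr, the lipid transfer protein Pltp and the membrane-bending protein Pacsin1, which modulates interferon release in pDC.

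The IR library held the fewest pDC. They numbered 286, 56 and 98 in Control, IR and IR+CBD, or 2.68% (2.38 to 3), 0.541% (0.409 to 0.702) and 0.954% (0.775 to 1.16) of kept cells. The IR share was 0.202 (0.149 to 0.270) times that of Control, the IR+CBD share 1.76 (1.26 to 2.49) times that of IR, and the IR+CBD share 0.356 (0.280 to 0.449) times that of Control. The mix from CBD-treated mice thus had a higher pDC share than that of IR, and both were far below Control. Over the alternatives run, these ratios ranged from 0.156 to 0.242, from 1.42 to 2.17 and from 0.313 to 0.372, all inside the intervals above. The last 2 comparisons share libraries with the first, so the 3 ratios are not independent.

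**Figure D1:**
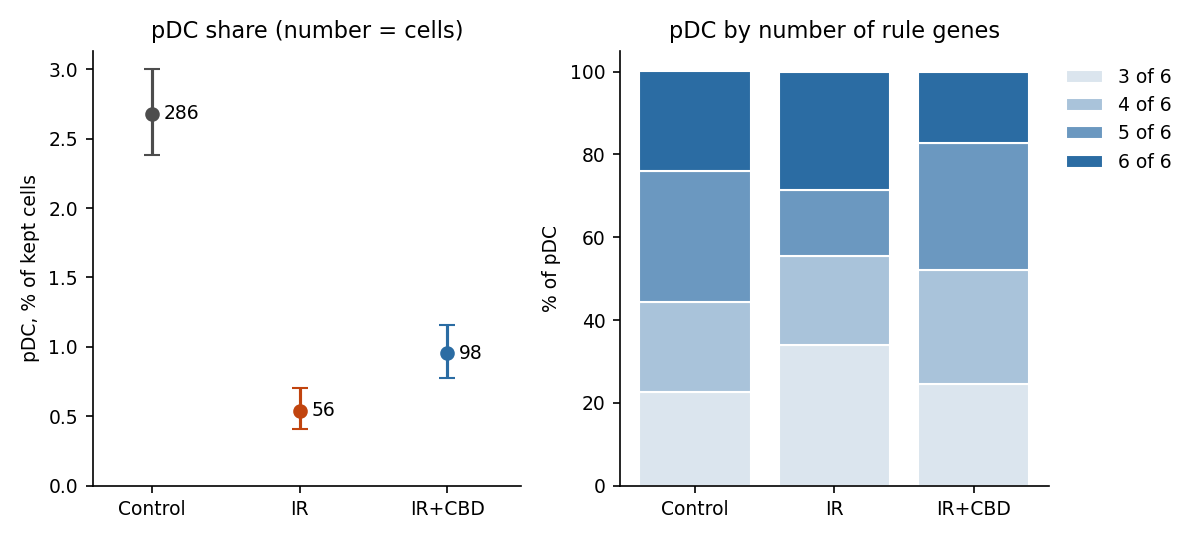
Left, pDC as a share of kept cells in each library with exact 95% intervals, numbers giving cells. Right, bar chart of the pDC of each library by how many of the 6 rule genes had a UMI.

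Of the other classes, shares were taken for natural killer cells, monocytes, neutrophils, B cells and erythroid cells only. Among these, natural killer cells had shares most similar to those of pDC. They numbered 68, 20 and 28 cells, with an IR share 0.304 (0.175 to 0.506) times that of Control. Monocytes, neutrophils and B cells had IR shares 1.09, 1.10 and 1.18 times those of Control, and erythroid cells 2.27 (2.05 to 2.53) times. All shares add up to the whole mix, so they are not independent of one another. For IR+CBD over IR, the ratios were 1.41 (0.766 to 2.64) for natural killer cells, 0.879 for monocytes, 0.883 for B cells, 1.15 for neutrophils and 0.899 for erythroid cells.

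Cells are described here by how many rule genes they held, a count that the selection itself used. Cells with 3, 4, 5 and 6 rule genes numbered 65, 62, 90 and 69 in Control, 19, 12, 9 and 16 in IR, and 24, 27, 30 and 17 in IR+CBD, so that cells just inside the rule made up 22.7%, 33.9% and 24.5% of pDC. These cells with 3 rule genes had 259, 128 and 162 CPM of Siglech and 1400, 592 and 1038 CPM of Tcf4. The cells just outside, with 2 rule genes (174, 52 and 54 cells), had 45.3, 15.2 and 20.6 CPM of Siglech and 465, 328 and 376 CPM of Tcf4, whereas cells with all 6 had 2556, 2659 and 4326 CPM of Tcf4. Tcf4, which is not a rule gene, was thus lower in cells with 2 or 3 rule genes than in those with 6. The part of cells just inside the rule was largest in IR, from 19 cells. No difference in membership is drawn from it, because the selection used the same count. Cells at the limit were also deeper, with median depths of 11107, 18335 and 11210 UMIs at 3 rule genes and 17636, 23570 and 17708 UMIs at 2.

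Transcripts of other cell types were present among the pDC, and their part in the results was not tested. Predicted doublets, the cells scoring highest in each library, made up 48, 15 and 26 of the pDC (16.8%, 26.8% and 26.5%), against 8.54%, 8.28% and 8.22% of kept cells. At least 3 of 6 markers of another class were seen in 67, 23 and 27 pDC (23.4%, 41.1% and 27.6%), most often of monocytes (40, 18 and 18 cells), B cells (16, 6 and 10) and neutrophils (11, 5 and 6). Cells with markers of another class were thus most common in IR, while predicted doublets were about as common in IR+CBD. The pDC of IR were also the deepest, and the part of depth in this share was not tested. The 6 monocyte markers, all detected, summed to 472, 619 and 602 CPM, led by Ms4a6c, against 518, 447 and 379 CPM in the other cells. The 6 neutrophil markers, all detected, summed to 1089, 1967 and 1454 CPM against 3829, 4371 and 4925, led by Camp in Control and IR+CBD and by Retnlg in IR. Of the B cell markers, led by Ebf1, 6, 5 (Ms4a1 at 0) and 6 of 6 were detected at 315, 488 and 509 CPM against 1336, 1445 and 1252. Summed monocyte markers were therefore below their level in the other cells in Control and above it in IR and IR+CBD. Neutrophil and B cell markers were below it in each library.

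The other classes given here had lower sums. Conventional dendritic cell markers (6, 6 and 4 of 6 detected, Batf3 and Ccl17 at 0 in IR+CBD) summed to 102, 108 and 92.1 CPM against 13, 16.3 and 15.6, led by Cd209a in Control and Clec9a in the others. Clec9a was also among the genes leading in pDC over the other cells. Stem and progenitor markers, led by Meis1 (6, 5 and 5 of 6, Procr at 0 in IR and IR+CBD), summed to 105, 73.3 and 97.0 CPM against 205, 130 and 147. Basophil and mast cell markers, led by Hdc (6, 4 and 4 of 6, Fcer1a and Ms4a2 at 0 in IR, Prss34 and Ms4a2 in IR+CBD), summed to 94.6, 39.2 and 35.1 CPM against 470, 349 and 351. Apart from conventional dendritic cells, these classes stayed below their level in the other cells, with exceptions for megakaryocyte markers in IR and T cell markers in IR+CBD. Megakaryocyte markers summed to 8, 120 and 3.26 CPM against 86.2, 31.5 and 50.7 (3, 4 and 3 of 6, Ppbp and Gp6 at 0 throughout and Gp1bb in Control and IR+CBD), with Itga2b, Pf4 at 104 CPM, and Gp9 leading. Plasma cell markers, led by Sdc1 (4, 3 and 4 of 6, Tnfrsf17 and Iglv1 at 0 throughout, Jchain in IR), summed to 22.3, 18.6 and 16.3 CPM against 126, 53.4 and 91.3. Natural killer and T cell transcripts were close to absent. Natural killer markers, led by Klre1 (6, 3 and 3 of 6, Ncr1 and Gzma at 0 in IR and IR+CBD, Klra8 in IR, Klrb1c in IR+CBD), summed to 12.3, 7.22 and 3.26 CPM against 20.4, 19.2 and 19.5. T cell markers summed to 9.72, 4.13 and 16.3 CPM against 20.6, 14.3 and 13.2 (4, 2 and 3 of 6, Cd3e at 0 throughout, Cd3g in Control and IR, Cd3d and Trac in IR and IR+CBD), led by Lat, Cd5 and Lat.

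Free RNA of abundant blood cells was measured with 14 genes of red cells and granulocytes, which summed to 10940, 17160 and 13930 CPM in pDC against 41070, 42130 and 49670 CPM in the other cells. Of the 10 tested, 8 had a ratio above 1 for IR over Control (median log2 ratio 0.31), 3 for IR+CBD over IR (−0.18) and 7 for IR+CBD over Control (0.27). With predicted doublets removed the medians were −0.29, 1.56 and 1.40, and with cells carrying markers of another class removed 0.80, −3.33 and −2.25. That of IR over Control was 1.35 among cells with at least 4 rule genes and 1.455 with each cell given the same weight, so the list gave no settled direction. The granulocyte calcium-binding protein S100a9 had 3079, 6224 and 4323 CPM. Its IR over Control ratio of 2.02 was 4.77 among cells with at least 4 rule genes. S100a8, its partner, had 8706, 27620 and 174 CPM in the IR cells with 4, 5 and 6 rule genes. Per cell, the median of granulocyte and red cell genes was 9.69, 7.65 and 7.07 UMIs per 10000, and the level that 10% of cells exceeded was 24.95, 139 and 29.2. A few cells thus carried the higher sums of the irradiated libraries, while the typical pDC of IR and IR+CBD held less of these transcripts than that of Control. Barcodes shared between libraries numbered 35 for Control and IR, 41 for Control and IR+CBD and 51 for IR and IR+CBD, and no shared barcode was a pDC in both libraries.

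Few genes of the pDC passed 2-fold. Among 3649 genes with a mean of at least 50 CPM over the libraries, 13 were at least 2-fold higher (0.356%) and 53 lower (1.45%) in IR than in Control, 40 higher (1.1%) and 16 lower (0.438%) in IR+CBD than in IR, and 3 higher (0.0822%) and 11 lower (0.301%) in IR+CBD than in Control. Median log2 ratios over all genes tested were −0.05, 0.07 and 0.02. The pDC of IR+CBD were thus nearer to those of Control than the pDC of IR were, by number of called genes. Calls rest on the ratio alone, and IR held fewer pDC (56 against 98 in IR+CBD). How far this added to its calls was not tested. In all other kept cells the same genes gave 11 higher and 24 lower, 0 and 5, and 4 and 19. The split of the calls depended on scaling and on the limit of the rule. With libraries scaled by the median of ratios, IR over Control gave 18 higher and 44 lower genes and IR+CBD over IR 22 and 20. Among cells with at least 4 rule genes it was 37 higher and 35 lower for IR over Control, so the excess of lower genes was not seen under that rule. The 3 genes higher in IR+CBD than in Control, Mmp8, Retnlg and Ebf1, are genes of neutrophils and B cells.

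Interferon-response genes were higher in the pDC of IR than in those of both other libraries. The surface protein Ly6a stood at 82.9, 408 and 54.6 CPM in Control, IR and IR+CBD. Its ratio was 4.92 (4.22 to 5.74) for IR over Control, and that of IR+CBD over IR was 0.134 (0.102 to 0.174). Ifi27l2a, a mitochondrial protein induced by interferon, had 356, 1306 and 425 CPM, with ratios of 3.67 (3.39 to 3.97) and 0.325 (0.293 to 0.360). Ifitm3, which blocks viral entry at membranes, had 177, 565 and 155 CPM (3.19 and 0.274), and Irf7, the factor through which pDC amplify interferon, 49.2, 127 and 29.3 CPM (2.58 and 0.231). In these 4 genes the IR library stood out, and the IR+CBD value was below that of Control in 3. The growth regulator Slfn2 had 42.3, 92.9 and 45.7 CPM (2.20 and 0.492). Isg15, a ubiquitin-like modifier below the limit for testing, had 21.1, 76.4 and 8.15 CPM. Prevalence went the same way, with a Ly6a UMI in 36.0%, 87.5% and 21.4% of pDC, or 17.5%, 50% and 13.3% of cells thinned to 2000 UMIs.

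The list followed these genes. Of 24 interferon-response genes tested, 19 had a ratio above 1 for IR over Control (5 called higher, against 0.356% of all genes tested, and a median log2 ratio of 0.33 against −0.05), 4 for IR+CBD over IR (5 called lower against 0.438%, −0.33 against 0.07) and 12 for IR+CBD over Control (1 called lower against 0.301%, Ifitm1 at 0.451, −0.02 against 0.02, and 0.07 with cells carrying markers of another class removed). The same 5 genes made up the first 2 sets of calls. Of them, Irf7 and Slfn2 reached the limit for testing through IR, where they were highest, and were under 50 CPM in both other libraries. The calls that did not enter this way were Ly6a, Ifi27l2a and Ifitm3. The list summed to 7606, 10800 and 7810 CPM, and at a minimum of 100 CPM its medians were 0.22, −0.25 and 0.01. Summed over all pDC, not every gene moved. The tetherin gene Bst2, a marker of resting pDC, had 2076, 2005 and 2229 CPM and Ly6e 1348, 1570 and 1495 CPM. Among cells with at least 4 rule genes, however, Bst2 had 2538, 2931 and 2815 CPM. With all 6 it had 2560, 3638 and 3889 CPM, so IR was above Control in these cells. Ifi30, a lysosomal reductase, was higher in both irradiated libraries (220, 362 and 345 CPM). Per cell, the list without Bst2 and Irf7, which pDC also carry at rest, made up a median of 58.7 UMIs per 10000 in Control (quartiles 44.8 and 74.2), 99.3 in IR (77.0 and 121) and 61.2 in IR+CBD (47.2 and 75.2). The difference was spread over the cells and was not carried by a few, since 85.7% of IR pDC lay above the Control median and 8.16% of IR+CBD pDC lay above the IR median.

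**Figure D2:**
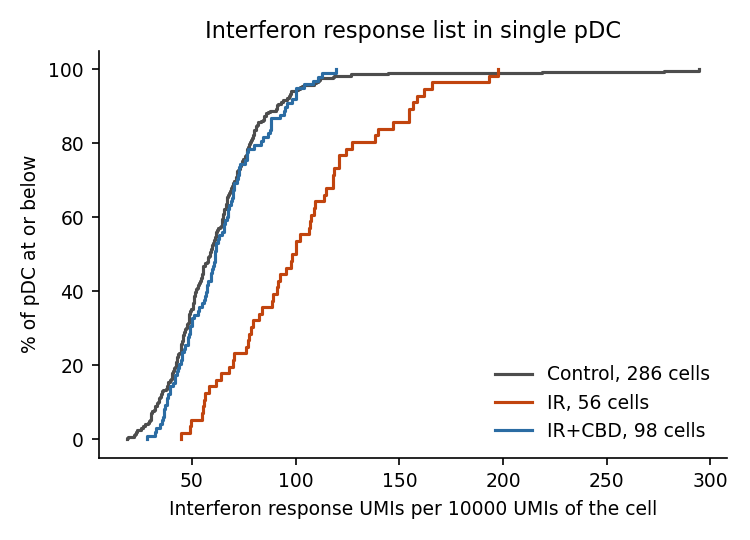
Cumulative share of pDC by the interferon response list (without Bst2 and Irf7) per 10000 UMIs of the cell, 1 curve for each library.

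Other cells of the same libraries showed the same order. The median log2 ratio of the list for IR over Control and for IR+CBD over IR was 0.33 and −0.33 in pDC, 0.44 and −0.59 in monocytes, 0.58 and −0.57 in B cells, 0.24 and −0.22 in natural killer cells, 0.51 and −0.68 in neutrophils and 0.89 and −0.81 in erythroid cells. The difference was thus shared by pDC and these 5 classes. Single genes differed in size between pDC and the rest. Ly6a was 4.92-fold higher in the pDC of IR and 1.86-fold higher in all other kept cells, while Ifi27l2a was 3.67-fold higher in pDC and 6.61-fold in the others, and Irf7 2.58-fold and 5.40-fold. The pDC of Control already carried more of the list (7606 CPM) than the other cells of Control (4463 CPM).

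To show what these genes carry in their promoters, the core of the interferon-stimulated response element, GAAANNGAAA, was looked up on both strands from 250 bases before to 50 bases after each RefSeq start in GRCm38.p6. It occurred in 1131 of 32851 promoters (3.44%) and in 53 of 119 promoters of the interferon-response list (44.5%), against 3.28% of promoters of all genes tested. Of the list's tested genes, 11 of 30 promoters held it (36.7%), among them those of Ifitm3 and Bst2. The core was thus present at Ifitm3, which was called, and at Bst2, whose sum over all pDC differed little between libraries. No match was found for the other called genes of the list, Ly6a, Ifi27l2a, Irf7 and Slfn2. Whether each of them had a promoter among those searched is not given here. Of the MHC class I list, 5 of 23 promoters held it (21.7%), including that of B2m, and of the 20 interferon gene promoters 11 did (55.0%). The windows of 60 bases are written 5′ to 3′ on the strand of the gene with each match to the core in capitals, overlapping ones included, and a match describes the sequence and no binding.
Isg15: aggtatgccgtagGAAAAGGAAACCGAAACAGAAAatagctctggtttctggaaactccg
Ifitm3: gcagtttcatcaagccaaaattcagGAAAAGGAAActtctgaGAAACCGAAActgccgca
Bst2: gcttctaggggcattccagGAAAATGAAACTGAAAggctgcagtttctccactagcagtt
B2m: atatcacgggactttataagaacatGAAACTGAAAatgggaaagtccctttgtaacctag
The match nearest the start begins 66 bases before it in Isg15, 124 in Bst2 and 139 in B2m, and just after it in Ifitm3.

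MHC class I genes followed the interferon response. H2-Q7, a nonclassical class I molecule, had 149, 405 and 74.2 CPM, with an IR over Control ratio of 2.72 (2.38 to 3.10) and an IR+CBD over IR ratio of 0.183 (0.144 to 0.231), and its neighbour H2-Q6 had 16.9, 89.8 and 8.15 CPM. For IR+CBD over Control H2-Q7 was at 0.498 (0.394 to 0.624), but at 0.542 with at least 4 rule genes and 0.649 with at least 2. The counts of the list, taken with a pseudocount, hold no call for that comparison. The classical heavy chains H2-K1 (617, 1224 and 593 CPM, 1.98 and 0.484) and H2-D1 (812, 1478 and 798 CPM, 1.82 and 0.540) and their light chain B2m (1208, 2019 and 1218 CPM, 1.67 and 0.603) differed less. In IR+CBD these 3 genes were within a few percent of Control. With at least 2 rule genes, H2-K1 was at 0.622 for IR+CBD over IR. The peptide transporter subunit Tap1 (52.6, 101 and 54.6 CPM) and the immunoproteasome subunit Psmb9 (210, 373 and 259 CPM) had the same order. Of the 16 genes tested, 15 had a ratio above 1 for IR over Control (median log2 ratio 0.50, 1 called higher against 0.356% of all genes tested), 2 for IR+CBD over IR (−0.40, 3 called lower against 0.438%) and 12 for IR+CBD over Control (0.09), and the list summed to 6018, 9465 and 6253 CPM. Of the 3 calls, H2-T22 (44.0, 85.7 and 39.1 CPM), reached the limit for testing through IR, and was at 0.534 with at least 2 rule genes and 0.531 with cells carrying markers of another class removed.

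The main MHC class II genes, which present antigen to helper T cells, were lowest in IR+CBD. The invariant chain Cd74 stood at 925, 1078 and 541 CPM, the chains H2-Aa at 346, 400 and 211 CPM and H2-Ab1 at 292, 374 and 155 CPM, and H2-Eb1 at 171, 214 and 92.9 CPM. For IR+CBD over IR the ratios were 0.502 (0.455 to 0.554), 0.527 (0.449 to 0.619), 0.415 (0.346 to 0.496) and 0.435 (0.343 to 0.549), and for IR+CBD over Control 0.585, 0.610, 0.530 and 0.543. These 4 genes thus had their lowest sums in IR+CBD, with IR slightly above Control, though H2-Ab1 and H2-Eb1 were at 0.744 and 0.743 for IR+CBD over IR with at least 2 rule genes. A UMI of Cd74 was found in 57.3%, 51.8% and 59.2% of pDC (44.9%, 39.3% and 39.8% thinned). Per cell, the list had medians of 17.6, 20.8 and 21.8 UMIs per 10000 and upper quartiles of 53.7, 92.0 and 38.3, so the typical cell was not lower in IR+CBD and the difference lay in fewer cells with a high level. Of 9 genes tested, 8 were above 1 for IR over Control (median log2 ratio 0.22), 3 for IR+CBD over IR (−0.57) and 3 for IR+CBD over Control (−0.13). H2-Ab1 and H2-Eb1 were called lower for IR+CBD over IR, against 0.438% of all genes tested. The list summed to 2825, 3264 and 2228 CPM. The medians depended on the cells and genes taken. That of IR+CBD over IR was −0.01 with cells carrying markers of another class removed and −0.07 at a minimum of 20 CPM, and that of IR+CBD over Control was 0.15 with predicted doublets removed, 0.05 with the other classes removed and 0.02 with at least 2 rule genes. At a minimum of 100 CPM these 2 medians were instead −0.92 and −0.71. For IR over Control the median was 0.74 with predicted doublets removed. All other kept cells had −0.19, −0.11 and −0.30. The conventional dendritic cell receptor Clec9a was at 29.4, 73.3 and 48.9 CPM (2.49 for IR over Control). It reached the limit for testing through IR, where it was highest, and was under 50 CPM in both other libraries.

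**Figure D3:**
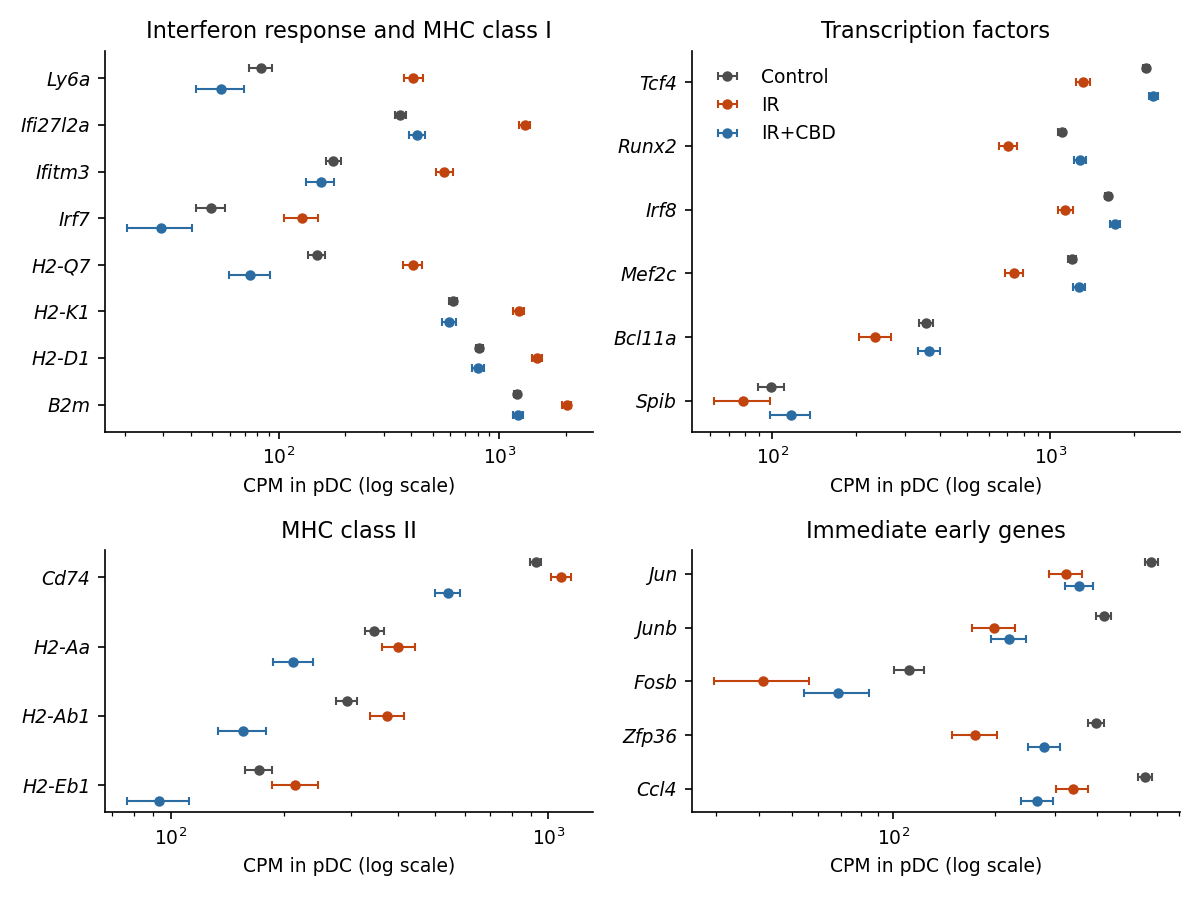
CPM of selected genes in the pDC of each library on a log scale, with exact Poisson 95% intervals.

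Summed over all pDC, most transcription factors of pDC identity were lowest in IR. Tcf4 had 2202, 1310 and 2338 CPM, with an IR over Control ratio of 0.595 and an IR+CBD over IR ratio of 1.79 (1.67 to 1.91). Other factors followed, Runx2, needed for exit of pDC from marrow, at 1096, 706 and 1272 CPM, Irf8 at 1611, 1132 and 1703 CPM, Mef2c at 1194, 738 and 1263 CPM and the Tcf4 target Bcl11a at 357, 234 and 367 CPM. By these sums the 5 factors were slightly above Control in IR+CBD. Spib, which supports pDC survival, had 99.4, 78.4 and 117 CPM, and the differentiation factor Zeb2 differed least (710, 643 and 796 CPM). None of the 17 tested was called. Of them, 2 were above 1 for IR over Control (median log2 ratio −0.51), 15 for IR+CBD over IR (0.57) and 11 for IR+CBD over Control (0.08, −0.02 with each cell given the same weight and 0.18 among cells with at least 4 rule genes), with sums of 11040, 7599 and 11450 CPM. Among cells with at least 4 rule genes in each library, Tcf4 in IR was at 0.797 and Runx2 at 0.858 of Control, and the list median was −0.31. Among cells with all 6 rule genes (69, 16 and 17) Tcf4 had 2556, 2659 and 4326 CPM, Runx2 1087, 1337 and 1770 CPM and Irf8 1540, 1743 and 1989 CPM. For these factors, IR was thus not below Control in these few cells, and IR+CBD was highest.

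Further genes with the same order were among the largest differences. The cytoskeletal regulator Rnd3 had 91.2, 26.8 and 100 CPM (0.294 for IR over Control, and 3.74 with an interval of 2.43 to 5.95 when IR+CBD is set over IR), the receptor-like Ldlrad3 92.9, 33.0 and 99.4 CPM (0.356 and 3.01) and the ubiquitin ligase Mid1 78.9, 24.8 and 74.2 CPM (0.314 and 3). The lipid raft protein Rftn1, abundant in lymphoid cells, had 330, 135 and 320 CPM (0.410 and 2.37), and the kinase Prkca 513, 272 and 560 CPM (2.06 for IR+CBD over IR). These genes, like the identity factors, were near Control in IR+CBD. Some of them did not pass 2-fold under each alternative. With at least 4 rule genes Rftn1 was at 0.544 for IR over Control and Prkca at 1.79 for IR+CBD over IR, and Prkca was at 1.94 with cells carrying markers of another class removed, 1.95 with each cell given the same weight and 1.96 with scaling by the median of ratios. With at least 2 rule genes Ldlrad3 was at 0.604 and 1.71 and Rftn1 at 1.83 for IR+CBD over IR. Others stayed low in both irradiated libraries. The transcriptional regulator Auts2 had 242, 67.1 and 101 CPM (0.278 for IR over Control and 0.418 for IR+CBD over Control), and Grm8, among the genes most specific to pDC, 273, 128 and 108 CPM (0.394 for IR+CBD over Control). The membrane receptor Plxdc2 had 80.9, 42.3 and 29.3 CPM (0.363). It reached the limit for testing through Control, where it was highest, and was under 50 CPM in both other libraries. It therefore adds no support to this group. With cells that carried markers of another class removed, Auts2 was at 0.525 for IR over Control and 0.519 for IR+CBD over Control, and with predicted doublets removed Grm8 was at 0.529 for IR+CBD over Control, so these were lower but no longer past 2-fold.

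Surface proteins as a list hardly differed, while single ones did. Of 22 tested, 6 were above 1 for IR over Control (median log2 ratio −0.17), 14 for IR+CBD over IR (0.19) and 9 for IR+CBD over Control (−0.08), and they summed to 12400, 12270 and 13300 CPM. With at least 4 rule genes the first 2 medians were 0.09 and −0.07, and with predicted doublets removed the last was 0.13. Ly6d, a marker of pDC and lymphoid progenitors, had 2174, 1735 and 2198 CPM, and Ly6c2, a marker of marrow pDC and monocytes, 662, 1180 and 774 CPM. Pacsin1 had 133, 68.1 and 125 CPM and the phosphatase Ptprs, which restrains pDC, 119, 59.9 and 123 CPM, with an IR+CBD over IR ratio of 2.06 that was 1.73 among cells with at least 4 rule genes. Single receptors went both ways. The lectin Cd209d had 89.4, 21.7 and 5.71 CPM from 313, 21 and 7 UMIs, in 26.2%, 10.7% and 4.08% of pDC. In cells thinned to 2000 UMIs it was seen in 16.8%, 7.14% and 0% (0 of 98, where 3 counts would be 3.06% and the exact limit is 3.69%, a limit on cells with a UMI and not on cells that express it). The checkpoint receptor Lag3 had 36.6, 15.5 and 8.97 CPM and the lectin-like Klra17 49.7, 28.9 and 33.4 CPM, while the phosphatidylserine receptor Havcr1 had 28.3, 15.5 and 39.9 CPM. Cd209d and Lag3 were thus lower in both irradiated libraries, and Havcr1 was highest in IR+CBD. These receptors and Klra17 were below the limit for testing, so none of them was called.

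Immediate early genes, which are switched on within minutes by many stimuli including tissue handling, were highest in Control. The AP-1 subunits Jun (578, 323 and 355 CPM), Junb (418, 198 and 219 CPM) and Fosb (111, 41.3 and 68.5 CPM) and the RNA-decay factor Zfp36 (398, 174 and 279 CPM) had IR over Control ratios of 0.559, 0.474, 0.371 and 0.439. The chemokines Ccl4 (554, 339 and 266 CPM) and Ccl3 (117, 47.5 and 33.4 CPM) were lowest in IR+CBD, at 0.479 (0.425 to 0.539) and 0.287 of Control. Ccl3 reached the limit for testing through Control, where it was highest, and was under 50 CPM in both other libraries. It is counted among the genes called lower than Control below and adds no support to those counts. The pDC of irradiated mice thus had less of these immediate early genes and of Ccl4, with and without CBD. Of 26 genes tested, 1 was above 1 for IR over Control (median log2 ratio −0.61 against −0.05 over all genes tested, 4 called lower against 1.45%), 21 for IR+CBD over IR (0.14 against 0.07) and 2 for IR+CBD over Control (−0.44 against 0.02, 2 called lower against 0.301%), with sums of 6490, 4047 and 4558 CPM. All other kept cells together had medians of −0.54, 0.13 and −0.37, but the classes differed. For IR over Control and IR+CBD over Control they were −0.43 and −0.04 in monocytes, −0.43 and −0.71 in erythroid cells, −0.05 and 0.22 in neutrophils, −0.20 and 0.04 in natural killer cells and 0.11 and 0.19 in B cells. Erythroid cells were thus lower in both irradiated libraries, as the pDC were, while B cells were not, and handling of the samples cannot be told apart from treatment. Il12a, a subunit of interleukin 12 and 35, had 111, 46.4 and 51.4 CPM (0.463 for IR+CBD over Control), and the transcription factor Irf1 115, 82.6 and 58.7 CPM. Il12a was highest in Control and reached the limit for testing through that library, so it adds no support here. With cells that carried markers of another class removed, Fosb was at 0.648 for IR over Control, and with each cell given the same weight at 0.539. With at least 4 rule genes Zfp36 was at 0.514 for IR over Control and Il12a at 0.538 for IR+CBD over Control, and Ccl4 was at 0.587 with at least 2 rule genes and 0.518 with predicted doublets removed. With Il12a left aside, these calls thus depended on the cells taken, while the direction did not.

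Genes of the sensing machinery were detected in each library, and interferon transcripts were close to absent. Of 21 interferon genes in the files, 2 had any UMI in pDC, none reached the limit for testing, and together they gave 0.572, 0 and 0.815 CPM. The endosomal RNA receptor Tlr7 had 42.9, 34.1 and 26.9 CPM, and a UMI of the DNA receptor Tlr9 was found in 10, 2 and 3 pDC, too few for a comparison. Its chaperone Unc93b1 had 332, 312 and 382 CPM and the exonuclease Pld4 224, 224 and 242 CPM. Receptor transcripts were thus sparse, and those of these 2 genes were better covered. The adaptor Blnk, used in signals that dampen interferon, had 536, 257 and 400 CPM (0.480 for IR over Control). Of 19 sensing genes tested, 7 were above 1 for IR over Control (median log2 ratio −0.06, and 0.03 among cells with at least 4 rule genes), 15 for IR+CBD over IR (0.21) and 13 for IR+CBD over Control (0.07). The median for IR+CBD over IR was −0.000178 with predicted doublets removed and −0.04 with each cell given the same weight, so its direction depended on how the cells were taken.

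The secretory pathway, large in pDC, differed little. Of 48 genes tested, 29 were above 1 for IR over Control (median log2 ratio 0.12), 22 for IR+CBD over IR (−0.04) and 35 for IR+CBD over Control (0.12), a value that was −0.02 among cells with at least 4 rule genes. The stress sensor Ern1 had 255, 118 and 237 CPM (0.462 for IR over Control and 2.02 for IR+CBD over IR), while its target Xbp1 had 110, 100 and 97.8 CPM and the chaperone Hspa5 639, 610 and 641 CPM. Sdf2l1, another stress gene of this compartment, had 111, 216 and 152 CPM (1.94, 1.63 to 2.30, for IR over Control). The genes of this pathway thus went in different directions. Among cells with at least 4 rule genes, Ern1 was at 0.610 and 1.59 and no longer past 2-fold.

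Cytokine receptors were mostly lower in IR, while homing receptors went both ways. The cytokine receptor Flt3, which pDC need for development, had 148, 93.9 and 114 CPM, and the interleukin 7 receptor Il7r, a trace of lymphoid origin, 126, 59.9 and 105 CPM (0.475 for IR over Control, and 0.691 among cells with at least 4 rule genes). Of 11 cytokine receptors tested, 1 was above 1 for IR over Control (median log2 ratio −0.38), 9 for IR+CBD over IR (0.22) and 3 for IR+CBD over Control (−0.15, and 0.01 among cells with at least 4 rule genes). That 1 gene was Csf2ra, which binds the granulocyte and macrophage growth factor, at 38.6, 70.2 and 44.8 CPM. It reached the limit for testing through IR, where it was highest, and was under 50 CPM in both other libraries. Of 12 homing receptors, 5 were above 1 for IR over Control (−0.11, and 0.21 with predicted doublets removed), 9 for IR+CBD over IR (0.20) and 9 for IR+CBD over Control (0.20). The adhesion receptor Cd44 had 420, 244 and 378 CPM and the oxysterol receptor Gpr183, which positions dendritic cells, 42.9, 54.7 and 72.5 CPM. Homing genes thus spread in both directions without a call.

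Genes of survival and the p53 response were near level 14 days after irradiation. Of 15 tested, 8 were above 1 for IR over Control (median log2 ratio 0.09), 9 for IR+CBD over IR (0.04) and 11 for IR+CBD over Control (0.09). The p53 target Mdm2 had 58.6, 49.5 and 58.7 CPM, so IR+CBD was level with Control and IR was lower. Another, Cdkn1a, had 72.3, 51.6 and 36.7 CPM. Cdkn1a was highest in Control and reached the limit for testing through that library, so no direction is read from it. The death gene Bcl2l11 had 107, 47.5 and 88.9 CPM (0.443 for IR over Control, and 0.614 among cells with at least 4 rule genes) and the survival gene Bcl2 203, 223 and 249 CPM. Pmaip1, a p53 target that promotes death, had 46.9, 49.5 and 78.3 CPM. That is 1.67 (1.28 to 2.16) for IR+CBD over Control, and 2.56 with cells carrying markers of another class removed. This gene reached the limit for testing through IR+CBD, where it was highest, and was under 50 CPM in both other libraries. It is therefore not set against the other p53 targets. The median for IR over Control was −0.04 with predicted doublets removed, and that for IR+CBD over IR −0.04 with scaling by the median of ratios.

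Lymphoid genes, part of which pDC share with B cell precursors, went in different directions. Dntt, which adds bases to rearranging receptor genes, had 171, 153 and 62.0 CPM, in 41.3%, 23.2% and 25.5% of pDC, and was at 0.362 of Control in IR+CBD. Its IR over Control ratio of 0.892 was 2.47 among cells with at least 4 rule genes. The B cell factor Ebf1 had 155, 290 and 355 CPM from 49, 9 and 22 cells, and the antibody heavy chain Ighm 700, 522 and 681 CPM. Low Dntt in IR+CBD thus stood beside high Ebf1, which few cells carried. Of 9 tested, 5 were above 1 for IR over Control (median log2 ratio 0.03), 5 for IR+CBD over IR (0.12) and 2 for IR+CBD over Control (−0.26). With cells carrying markers of another class removed the first was −0.56, with each cell given the same weight the second −0.33, and with at least 4 rule genes the last 0.02.

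Cell cycle genes gave no call, and their direction depended on the cells taken. Mki67, a marker of dividing cells, had 166, 150 and 172 CPM and a UMI in 15.1%, 19.6% and 14.3% of thinned pDC, and the topoisomerase Top2a 275, 279 and 376 CPM. Of 35 genes of G2 and M phase, 27 were above 1 for IR over Control (median log2 ratio 0.20, and −0.01 among cells with at least 4 rule genes), 21 for IR+CBD over IR (0.07) and 33 for IR+CBD over Control (0.26). With predicted doublets removed the last 2 were −0.24 and 0.05. Per cell, the median of these genes was 17.95, 29.8 and 19.8 UMIs per 10000, and that of S phase genes 10.7, 16.0 and 9.72, so the typical pDC of IR held more of both. Of 27 genes of S phase, 20 were above 1 for IR over Control (0.07), 5 for IR+CBD over IR (−0.21) and 7 for IR+CBD over Control (−0.16). These S phase medians were −0.30 and 0.26 for the first 2 among cells with at least 4 rule genes and 0.10 for the last with cells carrying markers of another class removed, so the direction for S phase depended on which cells were taken. Oxidative phosphorylation was slightly higher in IR, with 69 of 73 genes above 1 for IR over Control (0.24), 10 for IR+CBD over IR (−0.19) and 54 for IR+CBD over Control (0.09). Among cells with at least 4 rule genes these were 0.08, −0.09 and −0.06, and that of IR+CBD over IR was −0.10 with predicted doublets removed and −0.09 with each cell given the same weight. Its complex IV subunit Cox5a had 575, 771 and 644 CPM. These small, one-sided differences contained 0 calls.

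Against Control, the pDC of IR+CBD had few genes higher with many cells behind them. By the lower bound of the interval, the first were the LIM protein Crip1 (691, 1152 and 1173 CPM, 1.70, 1.59 to 1.81), the calcium-binding protein S100a6 (518, 779 and 853 CPM, 1.65) and the galectin Lgals3 (180, 348 and 294 CPM, 1.63). All 3 are also made by monocytes, and all 3 were higher in IR as well. With cells carrying markers of another class removed the ratios were 2.23, 1.73 and 2.95, and Lgals3 was at 1.29 among cells with at least 4 rule genes. The pDC of both irradiated libraries thus shared a higher level of these genes and a lower one of immediate early genes, Auts2 and Grm8, while interferon response and class I set IR apart. Most identity factors did so over all pDC. Among cells with all 6 rule genes Tcf4, Runx2 and Irf8 did not, and the list as a whole was not taken there.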

How the data were processed

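The authors deposited count matrices of UMIs per gene and cell (56980 genes) with barcodes already called as cells. The matrix headers name Cell Ranger 7.0.1, while the methods and processing notes name 4.0. Whether intronic reads were counted is not given in the sources used here, which bears on the CPM of long genes such as Auts2 and Grm8. The submitters give GRCm39 as genome build, and the annotation release is not given in the sources used here. The counts were used as deposited, and renamed genes (Rigi, Sting1, Tasl, Marchf1) were looked up under both names.

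Doublets were scored by Scrublet (scanpy 1.11.5) in place of DoubletFinder, the top 0.8% per 1000 cells being marked and kept. Lists used log2 ratios with a pseudocount of 0.5 UMI. The genes tested had a mean of at least 50 CPM over the 3 libraries. The genes named are those of the 17 lists, those leading in pDC, and in each comparison the 15 highest and 15 lowest by the interval bound nearest to 1. Left out of this ranking were 107 genes with over 25% of a library's UMIs in 1 cell and 3 antigen receptor segments. That limit was applied where a library held at least 20 UMIs of the gene, which was chosen after the data had been seen. Members and lists were chosen with earlier results of these data known. The summed level of 1 class of markers is not reported here.

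The lists were pDC transcription factors, pDC surface proteins, nucleic acid sensing, interferon genes, interferon response, MHC class I, MHC class II, homing receptors, cytokine receptors, survival and p53 response, secretory pathway, immediate early genes, lymphoid genes, S phase, G2/M phase, oxidative phosphorylation, and free RNA of erythrocytes and granulocytes.

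Intervals were Clopper-Pearson for shares (a count of 0 was given a limit of 3 counts), exact Poisson for CPM and exact conditional binomial for ratios. The code was tested on simulated data. Python 3.11.15, numpy 2.4.6, scipy 1.17.1, pandas 2.3.3 and matplotlib 3.10.9 were used.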

Additional observations from a re-analysis of the deposited data

How the results depend on the processing

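Alternatives changed the number of called genes. For IR over Control (66 genes) it was 111 with predicted doublets removed, 113 with cells carrying markers of another class removed, and 203 and 31 with minimum levels of 20 and 100 CPM. For IR+CBD over IR (56) it was 34 and 103 with at least 2 and 4 rule genes, 99 and 150 with the same removals, and 193 and 23 at 20 and 100 CPM. For IR+CBD over Control (14) it was 37 and 49, 66 and 8, and 23 with each cell given the same weight. The share of higher genes among the calls shifted from 19.7% to 51.4% (4 rule genes), 33.3% (doublets removed) and 38.6% (each cell the same) for IR over Control, and from 21.4% to 55.6%, 35.1% and, at 20 CPM, 33.3% for IR+CBD over Control. For IR+CBD over IR it went from 71.4% (40 higher, 16 lower) to 52.4% (22 and 20) with scaling by the median of ratios, and to 55.9%, 58.3%, 54.6%, 57.3%, 53.5% and 56.5% with 2 rule genes, 4 rule genes, doublets removed, other classes removed, each cell the same and 100 CPM. Among values whose interval left out no change, those that turned were nucleic acid sensing for IR+CBD over IR (−0.000178 with doublets removed and −0.0357 with each cell the same), secretory pathway (−0.0152), oxidative phosphorylation (−0.057) and S phase (0.10) for IR+CBD over Control, S phase (−0.30) and G2/M phase (−0.011) for IR over Control, S phase for IR+CBD over IR (0.26), and Ube2c for IR+CBD over Control (0.994 with 4 rule genes and 0.872 with other classes removed). Medians of lists whose interval held 0 changed sign in 47 further cases. Of the values of lists and named genes and of the counts of higher and lower genes, 225 moved beyond their interval (counts by over 1.5 times) and 1051 stayed within it, and these numbers include the 47 cases. No paired analysis was possible because each group is 1 library. The 3 comparisons share libraries, and the number of cells in IR limits every value of that library.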
